A study of Mus musculus with 19 samples.

Results

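The interaction of sedanolide and bacterial lipopolysaccharide (LPS) was examined in bulk RNA-seq of mouse medial prefrontal cortex, as the sedanolide change in LPS-injected mice minus the sedanolide change in saline-injected mice. It was taken on the log2 scale as the interaction term of a 2 by 2 design, so all 19 of the 19 libraries enter it. A positive value means that the level with both agents was higher than the separate changes with each agent would give when added on the log2 scale, and a negative value that it was lower. All mice were wild type (WT). Controls (n = 4, numbered 1, 2, 4 and 5) had 8 days of saline by gavage and 5 days of saline by intraperitoneal injection. The LPS group (n = 5) had saline gavage and 5 days of LPS at 1 mg/kg by injection, and the sedanolide group (n = 5) had 8 days of sedanolide at 20 mg/kg by gavage, with no LPS. The co-treated group (n = 5) had both, with gavage beginning 3 days ahead of LPS. Sedanolide is a phthalide of celery seed, and LPS is a cell wall component of Gram-negative bacteria that induces systemic inflammation. The labels do not say that the replicates of a group are separate animals, so a p-value here reflects the spread between samples, which may be technical.

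Immediate early genes are transcribed within minutes of synaptic activity or growth factor signalling, through kinase cascades and the transcription factors CREB and SRF, and in the cortex they are widely read as markers of recent neuronal activity. Circulating LPS acts on the brain largely through the endothelium, microglia and adrenal glucocorticoids. Glucocorticoids act through a nuclear receptor that induces genes such as Fkbp5 and Zbtb16 in many tissues.

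Library totals ran from 19.08 to 24.32 M counts (M = mega, median 22.26), mitochondrially encoded genes took 5.5% to 11.8% of counts, and 23840 to 25620 genes had a count. The cortical projection neuron gene Slc17a7 was at 797.6 to 1882 CPM (counts per M counted, after scaling by library factors) in the 19 libraries, so the labelled cortical tissue was present in each. The olfactory bulb gene Cdhr1, however, was at 57.7 to 445 CPM in 7 libraries (2 control, 3 LPS, 2 sedanolide and 0 co-treated) and at 2.29 to 9.92 CPM in the other 12. The 14 bulb markers summed to 20.8 to 1540 CPM in controls, 17.3 to 707 with LPS, 10.8 to 620 with sedanolide and 8.49 to 19.2 with both agents. The median interaction of these markers was -2.9 (log2), and 0.3 in the 12 libraries low in Cdhr1. Since no co-treated library was high in bulb transcripts, the called interactions of named genes are given with their values in those 12 libraries (2 control, 2 LPS, 3 sedanolide and 5 co-treated). For named genes that were not called, the interaction is given in all 19 libraries only. The choroid plexus gene Ttr was at 0 to 1.76 CPM and the striatal gene Drd1 at 3.75 to 23.1 CPM.

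The interaction was called for 104 of 17757 genes tested (0.586%, edgeR quasi-likelihood test, Benjamini-Hochberg adjusted p below 0.05). Of these, 38 (0.214% of the genes tested) had a positive interaction and 66 (0.372%) a negative one, and 60 exceeded 2-fold. Immediate early genes led the positive calls: Egr2, Fos, Junb, Nr4a1, Arc and Dusp1 were lower with LPS than in controls, and with both agents stood above LPS alone. Xdh had the smallest p of the negative calls, which also held genes of the vascular endothelium such as Sox18 and Sox17. Zbtb16, Fkbp5 and Plin4, members of a list of glucocorticoid-response genes, were negative calls too, though 10 of the 21 values of that list were positive. An unadjusted p below 0.05 was found for 2821 genes, and the median over all genes tested was -0.02. The count moved with the libraries used: it was 33 without control replicate 5 and 242 without control replicate 2, and it left the range of 1.5 times the full count in 15 of the 19 fits that each left out 1 library. All 104 kept their sign in each of those fits, and 31 were called in all of them. Each of those fits shares all but 1 library with the fit that chose the genes. In the 12 libraries low in Cdhr1, 20 genes were called (17 positive and 3 negative), 14 of them among the 104, and all 104 kept their sign. There 101 of the 104 had an unadjusted p below 0.05, but these libraries are part of the 19 used to choose them. With an index of 4 bulb markers as a covariate in all 19 libraries, edgeR called 314 genes, among them all 104.

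The separate comparisons give the shape of the interaction. Sedanolide without LPS changed 943 genes (5.31%), sedanolide with LPS 350 (1.97%), LPS without sedanolide 1938 (10.9%) and LPS with sedanolide 990 (5.58%). The sedanolide counts rest on the libraries used: in the 12 libraries low in Cdhr1 they were 8 without LPS and 35 with it, and they were as low as 97 (without control replicate 5) and 141 (without LPS replicate 2). The count for LPS without sedanolide was 848 in the 12 libraries. Of the 38 genes with a positive interaction, 37 were lower with sedanolide alone than in controls (31 of them called) and all 38 were lower with LPS alone (34 called). In the co-treated group 37 of the 38 were higher than in LPS (13 called). Their median log2 change was -0.58 for sedanolide alone, -0.71 for LPS alone and 0.36 for co-treated against LPS. Of the 66 genes with a negative interaction, 65 were higher with sedanolide alone (31 called), 66 were higher with LPS alone (64 called), and 64 were lower with both agents than with LPS alone (37 called). Their median log2 change was 0.50 for sedanolide alone, 1.2 for LPS alone and -0.62 for co-treated against LPS. Sedanolide against control and co-treated against LPS share no library, but both comparisons with controls share the control libraries, and these directions are in part fixed by choosing genes on the interaction. They are given as a description. All 104 genes also had the same sign when the interaction was computed from group mean CPM instead of logs. For 99 of them the sedanolide changes with and without LPS had opposite signs, which largely fixes the sign on either scale.

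**Figure D1:**
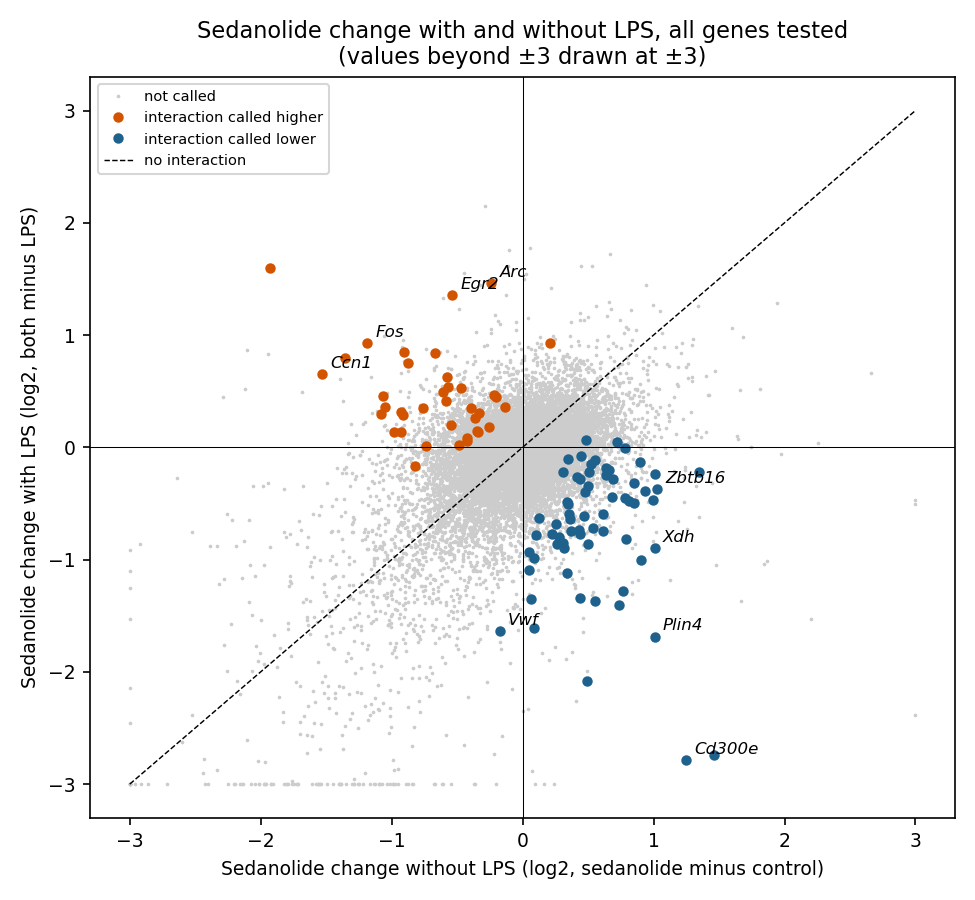
The log2 sedanolide change with LPS (co-treated minus LPS, vertical axis) is plotted against the log2 sedanolide change without LPS (sedanolide minus control, horizontal axis) for the 17757 genes tested, with values beyond ±3 drawn at ±3. The 38 called positive interactions (orange) lie mostly in the upper left and the 66 called negative ones (blue) mostly in the lower right, and the dashed line marks equal changes.

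Among inducible transcription factors, Egr2 had the smallest p. Egr2 encodes a zinc finger factor of the early growth response family (chromosome 10, 67371305 to 67378018 in the deposited table, whose genome build is not given in the sources used here). Its level was 28.4, 28.5, 24.2 and 30.1 CPM in controls, 8.84, 10.6, 8.18, 12.6 and 9.97 CPM with LPS, 20.5, 19.9, 15.7, 19.2 and 20.6 CPM with sedanolide, and 26, 29.3, 26.6, 24.2 and 22.6 CPM with both agents. Every LPS library was below every sedanolide library and every sedanolide library below every control, while co-treated libraries overlapped the controls. The interaction was 1.90 ± 0.16 (log2, SE), a 3.72-fold ratio of ratios (adjusted p = 5.48e-06). With sedanolide alone Egr2 fell by 0.54 against control (adjusted p = 0.0161) and co-treated libraries stood 1.36 above LPS (adjusted p = 3.81e-06). Among the 12 libraries low in Cdhr1, the interaction was 1.87 (adjusted p = 0.000226).

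Fos and Junb encode partners of the AP-1 transcription factor. Fos was at 134, 75, 85.9 and 114 CPM in controls, 30, 26.1, 26.8, 54 and 23.2 CPM with LPS, 41.1, 43.8, 44.6, 44.7 and 50.6 CPM with sedanolide, and 57.9, 53.6, 64.4, 57.1 and 71.7 CPM with both agents. Co-treated Fos stayed below every control, above every sedanolide library, and overlapped LPS through LPS replicate 4. Its interaction was 2.12 ± 0.28 (adjusted p = 0.00105), and 2.07 in the libraries low in Cdhr1 (adjusted p = 0.000226). Junb was at 138, 134, 155 and 139 CPM in controls, 91.2, 56.7, 70, 86.8 and 54.6 CPM with LPS, 82.7, 91.9, 83.3, 95.5 and 90.8 CPM with sedanolide, and 118, 108, 132, 122 and 163 CPM with both agents. Unlike Fos, co-treated Junb overlapped the controls, and it was above every library of either agent alone. The Junb interaction was 1.51 ± 0.19 (adjusted p = 0.000596), and 1.56 in the libraries low in Cdhr1 (adjusted p = 0.0295).

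Nr4a1 and Nr4a3 encode orphan nuclear receptors induced by activity and cyclic AMP. Nr4a1 was at 311, 143, 143 and 218 CPM in controls, 65.6, 92.3, 64.9, 89.9 and 64.2 CPM with LPS, 105, 98.2, 113, 123 and 115 CPM with sedanolide, and 122, 135, 119, 118 and 141 CPM with both agents. The controls spread widely and lay above every other library. Co-treated libraries were all above LPS and overlapped sedanolide alone. The Nr4a1 interaction was 1.63 ± 0.25 (adjusted p = 0.00526), and 1.44 in the libraries low in Cdhr1 (adjusted p = 0.000389). Nr4a3 had an interaction of 1.00 (adjusted p = 0.015), but 0.571 in the libraries low in Cdhr1 (adjusted p = 0.444).

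Arc encodes a synaptic protein that regulates AMPA receptor trafficking and is the effector most used as a readout of neuronal activity. It was at 315, 344, 244 and 303 CPM in controls, 165, 99.6, 110, 175 and 104 CPM with LPS, 258, 186, 243, 295 and 297 CPM with sedanolide, and 340, 379, 357, 422 and 303 CPM with both agents. Here sedanolide alone overlapped the controls, LPS alone was below every other group, and co-treated libraries overlapped the controls. The interaction was 1.70 ± 0.24 (adjusted p = 0.00182), made up of a log2 difference of -0.24 for sedanolide against control (adjusted p = 0.402) and 1.46 for co-treated against LPS (adjusted p = 0.000154). It was 1.72 in the libraries low in Cdhr1 (adjusted p = 0.0481). Npas4, a neuronal activity-dependent factor, had a value of 1.81 with a 95% interval of 0.663 to 2.95 and did not pass (adjusted p = 0.135).

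Dusp1 encodes a phosphatase that switches off MAP kinases and is itself an immediate early and a glucocorticoid-inducible gene. It was at 68.8, 67, 70 and 71.4 CPM in controls, 28, 20.9, 22.5, 38.7 and 19.5 CPM with LPS, 37.8, 32.9, 31.2, 36.7 and 46.8 CPM with sedanolide, and 44.7, 41.6, 49.1, 47.6 and 50 CPM with both agents. All treated libraries were below the controls, and the co-treated ones were above every LPS library. The interaction was 1.75 ± 0.21 (adjusted p = 0.000472), and 1.82 in the libraries low in Cdhr1 (adjusted p = 0.0015). Ddit4, a stress-induced inhibitor of mTORC1, followed a similar course with an interaction of 1.24 ± 0.15 (adjusted p = 0.000492). Its group means were 77.6 CPM ± 6.44 (SD, n = 4) in controls, 45.0 ± 3.12 with LPS, 40.9 ± 6.5 with sedanolide and 55.9 ± 7.23 with both agents (SD, n = 5 each). The growth arrest genes Gadd45g (1.20, adjusted p = 0.00883) and Gadd45b (0.74, adjusted p = 0.0157) and the small GTPase gene Arl4d (1.21, adjusted p = 0.00182) were also positive. These 5 genes were called in all 19 fits that left out 1 library. With the 7 libraries high in Cdhr1 left out, Ddit4 had 1.33 (adjusted p = 0.0162), Gadd45g 1.47 (adjusted p = 0.017) and Arl4d 1.32 (adjusted p = 0.0162), while Gadd45b, at 0.851, did not pass (adjusted p = 0.0993).

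Ccn1 encodes a matricellular protein induced early in vascular and other cells. It was at 12.2, 22.1, 22.5 and 17.9 CPM in controls, 7.43, 7.45, 5.14, 8.07 and 3.91 CPM with LPS, 4.44, 3.67, 6.49, 8.06 and 9.55 CPM with sedanolide, and 11, 6.73, 11.5, 11.5 and 9.7 CPM with both agents. Each agent alone was below every control, and the co-treated libraries overlapped both single agents. The interaction was 2.18 ± 0.37 (adjusted p = 0.00966), the highest of the positive named genes, and 2.77 in the libraries low in Cdhr1 (adjusted p = 0.0476). Btg2, an antiproliferative gene, had 1.38 (adjusted p = 0.0457), and Gem, a small GTPase, had 1.41 (adjusted p = 0.0407). Those calls were held in 4 and 11 of the 19 fits that left out 1 library, with adjusted p of up to 0.121 and 0.0876. Cort, the neuropeptide cortistatin of inhibitory interneurons, had 1.11 (adjusted p = 0.0418) and Insig1, which restrains sterol synthesis, had 0.69 (adjusted p = 0.0407). Each was called in 6 of the 19 such fits. In the libraries low in Cdhr1, Insig1 passed at 0.943 (adjusted p = 0.0195), and Btg2, Gem and Cort did not, at 1.59, 1.63 and 1.25 (adjusted p = 0.248, 0.197 and 0.0745).

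**Figure D2:**
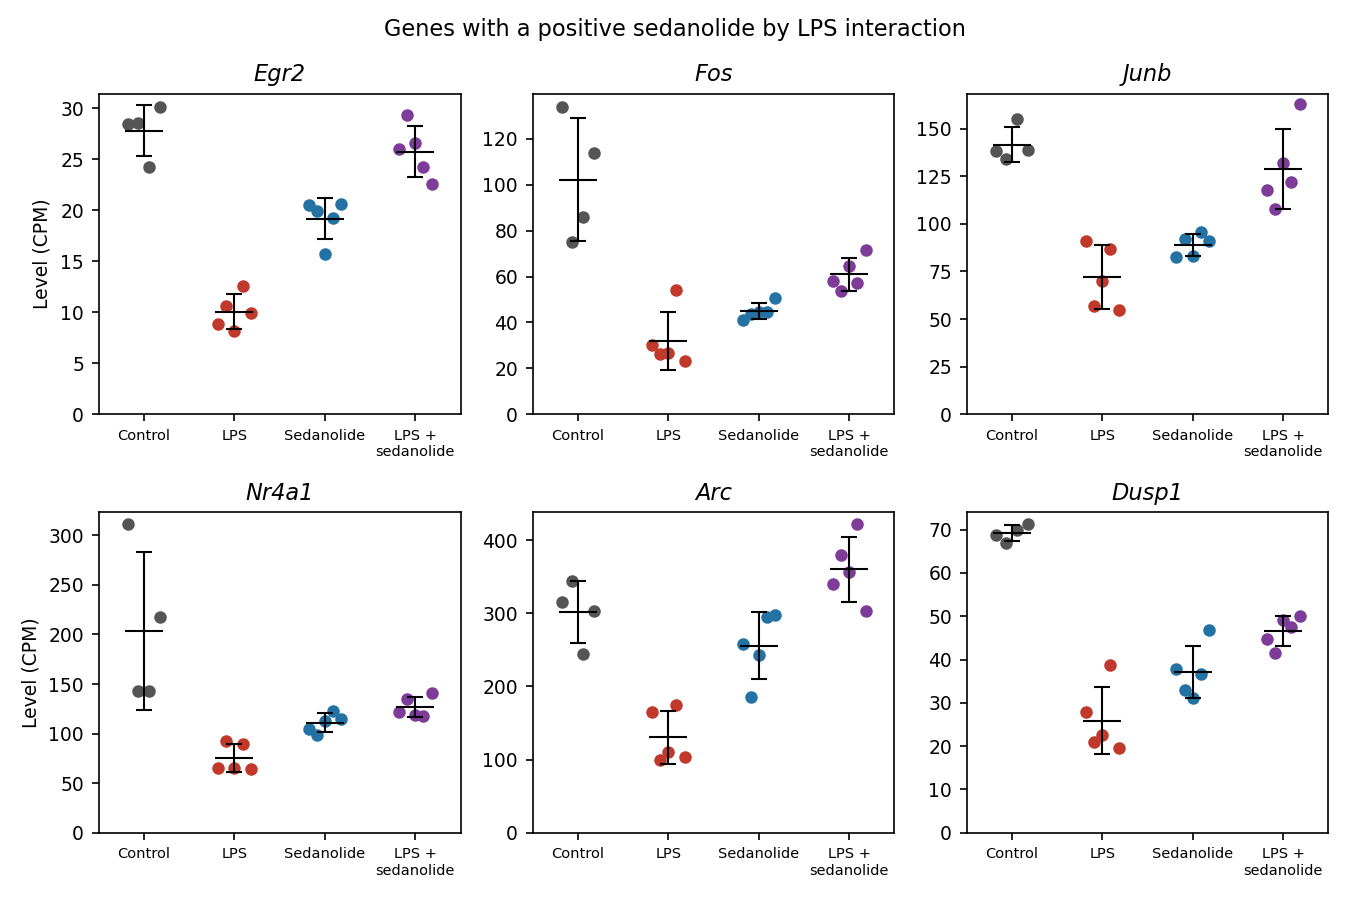
Level in CPM (vertical axis, from 0) of 6 genes with a called positive interaction in each of the 19 libraries by group; points are libraries, bars are the mean ± SD (n = 4 controls, n = 5 in the other groups). The LPS libraries lie below the controls for all 6 genes, and the co-treated libraries lie above LPS for 5, with Fos overlapping.

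Over the list of 29 immediate early genes, 9 were called positive and 0 negative, against 0.214% and 0.372% of all genes. The 9 were Egr2, Dusp1, Junb, Fos, Arc, Nr4a1, Nr4a3, Gadd45b and Btg2. The list's median interaction was 0.69, against -0.02 over all genes, and 27 of the 29 values were positive. For sedanolide alone 8 members were called lower and 2 higher (list median -0.47), where 375 of all 17757 genes were called lower and 568 higher. For LPS alone 15 were called lower and 0 higher (median -0.70), where 434 of all genes were called lower and 1504 higher. For co-treated against LPS 11 were called higher and 0 lower (median 0.32), where 51 of all genes were called higher and 299 lower. Among the 12 libraries low in Cdhr1, 7 members were called positive with a median of 0.65, where 17 of 17753 genes were called positive. With offsets correcting for length and GC the counts were 10 positive and 0 negative, against 32 and 46 of 17449 genes, with a median of 0.80. Of 13 matricellular and vascular early genes, 1 (Ccn1) was called positive, and the median was 0.59.

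Promoter sequences from RefSeq (GRCm38.p6), 250 bases before to 50 after the start, were matched by symbol for 12 of the 14 named genes called positive and 9 of the 16 called negative. They were searched on both strands for the cyclic AMP response element (CRE), TGACGTCA, and for its 5-base core, TGACG, which lies within it. The core was in 12 of the 16 windows of the positive genes (10 genes), in 1 of the 10 windows of the negative genes, and in 20.81% of all 32851 windows. The full CRE was in 3 windows of the positive genes (Dusp1, Arl4d and Btg2), in 0 of the negative genes, and in 1.79% of all windows. The CArG box, bound by SRF, and the kappaB motif, bound by NF-kB, were searched likewise. The CArG box was in 4 windows of the positive genes, all of Egr2, in 0 of the negative genes and in 1.63% of all windows. By gene that is 1 of the 12 positive genes matched. Several Egr2 windows overlap, so the same matches are counted in more than 1 window, for the core and the kappaB motif as well. The kappaB motif was in 5 windows of the positive genes (Egr2, Fos and Nr4a1), in 1 of the negative genes (Plin4) and in 9.38% of all windows. A match is a description of letters and not a binding site, and no test was made. The 250 bases before the start are printed 5′ to 3′ for 4 positive genes that hold the motif in different arrangements and for Fkbp5, a negative gene without it, with the CRE or its core in capitals (CGTCA is the core on the other strand).
Fos (chr12:85473640-85473889, + strand): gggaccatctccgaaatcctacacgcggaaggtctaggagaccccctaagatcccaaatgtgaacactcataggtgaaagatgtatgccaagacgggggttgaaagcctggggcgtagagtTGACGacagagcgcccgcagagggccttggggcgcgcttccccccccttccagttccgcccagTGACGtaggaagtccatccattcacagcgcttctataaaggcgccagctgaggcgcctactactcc
Dusp1 (chr17:26508473-26508722, - strand): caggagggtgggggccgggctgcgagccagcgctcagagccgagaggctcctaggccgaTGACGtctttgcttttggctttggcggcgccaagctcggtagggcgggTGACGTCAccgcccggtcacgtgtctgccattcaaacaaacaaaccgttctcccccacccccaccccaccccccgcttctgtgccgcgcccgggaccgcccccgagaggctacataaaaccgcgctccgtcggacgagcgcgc
Nr4a1 (chr15:101266596-101266845, + strand): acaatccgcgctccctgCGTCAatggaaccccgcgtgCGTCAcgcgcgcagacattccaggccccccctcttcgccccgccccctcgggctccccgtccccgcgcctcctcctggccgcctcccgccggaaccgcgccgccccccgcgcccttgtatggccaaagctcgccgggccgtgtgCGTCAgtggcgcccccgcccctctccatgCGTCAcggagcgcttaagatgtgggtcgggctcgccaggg
Btg2 (chr1:134079156-134079405, - strand): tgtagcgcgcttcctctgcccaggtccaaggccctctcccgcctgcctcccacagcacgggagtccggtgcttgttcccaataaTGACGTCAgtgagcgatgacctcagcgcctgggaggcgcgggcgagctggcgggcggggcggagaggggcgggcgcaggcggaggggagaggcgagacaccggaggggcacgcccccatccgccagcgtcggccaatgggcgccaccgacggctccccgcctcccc
Fkbp5 (chr17:28486150-28486399, - strand): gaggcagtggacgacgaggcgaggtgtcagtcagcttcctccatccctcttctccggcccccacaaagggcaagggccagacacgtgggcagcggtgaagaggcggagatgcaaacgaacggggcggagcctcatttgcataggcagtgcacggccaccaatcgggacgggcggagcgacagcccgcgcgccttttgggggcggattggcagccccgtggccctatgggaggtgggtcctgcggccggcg
Fos held 2 cores, Nr4a1 held 4 on the opposite strand, Dusp1 held a full CRE and a further core, and Btg2 a full CRE. All 4 were lower in both single-agent groups than in controls.

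Among the genes with a negative interaction, Xdh had the smallest p. Xdh encodes xanthine dehydrogenase, which makes urate in purine breakdown (chromosome 17, 74190890 to 74257191 in the deposited table). It was at 5.02, 5.15, 3 and 3.63 CPM in controls, 13.2, 12.6, 10.4, 9.73 and 8.57 CPM with LPS, 7.51, 8.32, 8.98, 8.18 and 9.41 CPM with sedanolide, and 6.1, 5.94, 5.97, 6.46 and 4.78 CPM with both agents. Both single-agent groups lay above every control and every co-treated library, and the co-treated libraries overlapped the controls. The interaction was -1.91 ± 0.22, and all 4 separate comparisons passed: 1.01 for sedanolide alone, 1.37 for LPS alone, -0.90 for co-treated against LPS and -0.54 for co-treated against sedanolide. The interaction's adjusted p was 0.000235, and its value in the libraries low in Cdhr1 was -1.9 (adjusted p = 0.023).

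Zbtb16 and Fkbp5 are induced by glucocorticoids; Zbtb16 encodes a zinc finger repressor and Fkbp5 a co-chaperone that dampens the glucocorticoid receptor. Zbtb16 was at 13.9, 21.3, 21 and 11.8 CPM in controls, 42.1, 28.8, 37.5, 31.3 and 30.1 CPM with LPS, 32.4, 38.5, 31.2, 34.9 and 36.1 CPM with sedanolide, and 30, 24.6, 25.5, 23.7 and 27.7 CPM with both agents. All treated libraries were above the controls, and the co-treated ones were below every sedanolide library. The interaction was -1.40 ± 0.21 (adjusted p = 0.00396), and -1.17 in the libraries low in Cdhr1 (adjusted p = 0.0248). Fkbp5 was at 32.2, 25.5, 24.6 and 27.4 CPM in controls, 69.2, 66.8, 52.9, 51.2 and 42.6 CPM with LPS, 32.3, 38.7, 44.4, 36.7 and 32.5 CPM with sedanolide, and 33.1, 29, 35.1, 35.7 and 36.8 CPM with both agents. Only LPS alone stood clear of the co-treated group. The interaction was -1.16 ± 0.18 (adjusted p = 0.00565), and -1.14 in the libraries low in Cdhr1, where it did not pass (adjusted p = 0.0894).

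Plin4, a lipid droplet coat gene, had the lowest interaction of the 12 largest negative named genes, at -2.69 ± 0.47 (adjusted p = 0.0111). It was at 1.29, 1.85, 0.688 and 1.25 CPM in controls, 3.57, 7.54, 3.13, 2.52 and 2.04 CPM with LPS, 2.2, 2.05, 3.56, 2.52 and 2.51 CPM with sedanolide, and 0.917, 1.1, 0.894, 1.55 and 1.38 CPM with both agents. Both single-agent groups were above every control and every co-treated library. Hif3a, an inhibitory hypoxia-inducible factor subunit, had -1.91 (adjusted p = 0.0246), and the stress kinase gene Map3k6 had -1.33 (adjusted p = 0.0162). With the 7 libraries high in Cdhr1 left out, none of these 3 passed, with values of -2.03, -1.75 and -0.941 (adjusted p = 0.262, 0.389 and 0.464). Of the 21 glucocorticoid-response genes tested, 5 were called negative (Zbtb16, Fkbp5, Plin4, Map3k6 and Hif3a) and 1 positive (Dusp1), against 0.372% and 0.214% of all genes, and the list's median was -0.08. The list held 10 positive and 11 negative values, of which 5 and 8 had an unadjusted p below 0.05. In the libraries low in Cdhr1, 1 member was called positive and 1 negative, against 17 and 3 of 17753 genes. The clock gene Per2 was called negative at -0.68 (adjusted p = 0.0407), and did not pass in the libraries low in Cdhr1 at -0.6 (adjusted p = 0.43). Its mean was 28.0 CPM ± 3.48 (SD, n = 4) in controls and 43.7 ± 4.18, 46.2 ± 5.56 and 45.0 ± 4.33 (SD, n = 5 each) in LPS, sedanolide and co-treated libraries.

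Sox18 and Sox17 encode transcription factors of endothelial identity. Sox18 was at 7.5, 10.1, 6.98 and 7.1 CPM in controls, 30.3, 38.3, 27.9, 21.5 and 21.1 CPM with LPS, 12.9, 13.4, 17.3, 18.4 and 16.9 CPM with sedanolide, and 18.5, 18.2, 20.4, 19.2 and 24.2 CPM with both agents. Every treated library was above the controls, with LPS above sedanolide, and the co-treated libraries overlapped both. The interaction was -1.47 ± 0.23 (adjusted p = 0.00571). Sox17 had -1.26 ± 0.23 (adjusted p = 0.0162). Its adjusted p became 0.0546 without control replicate 5, where the interaction stayed negative. Among the 12 libraries low in Cdhr1, the values were -1.06 for Sox18 (adjusted p = 0.283) and -0.868 for Sox17 (adjusted p = 0.516).

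Slc2a1 encodes GLUT1, the glucose transporter of the blood-brain barrier. It was at 118, 164, 95.1 and 116 CPM in controls, 350, 344, 265, 246 and 241 CPM with LPS, 151, 144, 161, 167 and 162 CPM with sedanolide, and 188, 169, 194, 216 and 191 CPM with both agents. The co-treated libraries lay between sedanolide and LPS without overlapping either. The interaction was -0.94 ± 0.19 (adjusted p = 0.0351), called in 9 of the 19 fits that left out 1 library. Tie1, an endothelial receptor kinase, had -0.89 (adjusted p = 0.0469), and Vwf, the platelet-binding von Willebrand factor, had -1.46 ± 0.32 (adjusted p = 0.0457). Vwf averaged 147.0 CPM ± 47.9 in LPS and 47.2 ± 5.93 in co-treated libraries (SD, n = 5 each), against 24.8 ± 10.1 in controls (SD, n = 4) and 22 ± 4.03 in sedanolide (SD, n = 5). Tie1 and Vwf were called in 5 and 4 of the 19 such fits. With the 7 libraries high in Cdhr1 left out, the values for Slc2a1, Tie1 and Vwf were -0.813, -0.514 and -0.987, and none passed (adjusted p = 0.503, 0.647 and 0.584).

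Of 21 endothelial identity genes, 4 were called negative (Sox18, Sox17, Slc2a1 and Tie1) and 0 positive, against 0.372% and 0.214% of all genes. In this list 19 values were negative, and the median was -0.40. With LPS alone 20 of the 21 were called higher (median 0.99), where 1504 of all 17757 genes were called higher. With LPS on top of sedanolide 11 were called higher (median 0.47), where 904 of all genes were. In the libraries low in Cdhr1, 0 of the 21 were called by edgeR, with a median of -0.30. In all 19 libraries an unadjusted p below 0.05 was reached by 12 of the 21, all negative, and by 2821 of all 17757 genes. DESeq2 called 5. The summed level was 1110 to 1480 CPM in controls, 1940 to 2310 with LPS, 1220 to 1340 with sedanolide and 1640 to 1870 with both agents, so the co-treated range lay between those of the single agents. In bulk tissue, fewer cells of a type and less RNA per cell cannot be told apart. Other endothelial genes among the 66, named after their values were seen, were Notch4 (-1.36), Flt4 (-1.29), Nos3 (-1.12), Eng (-1.07), Podxl (-0.94) and Robo4 (-0.85). None of these 6 passed in the libraries low in Cdhr1, where their adjusted p was 0.261 to 0.628.

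**Figure D3:**
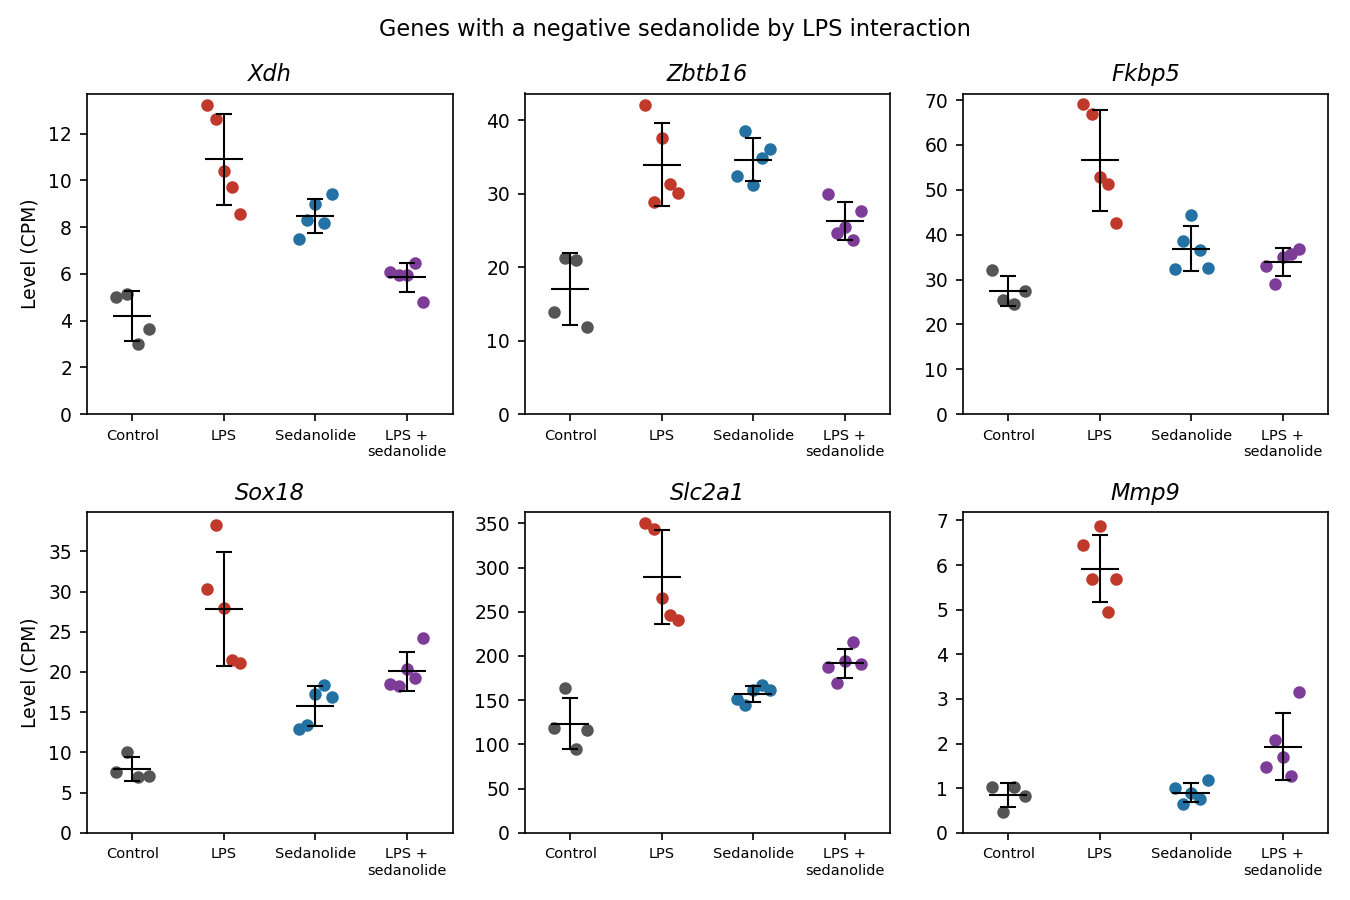
Level in CPM (vertical axis, from 0) of 6 genes with a called negative interaction in each of the 19 libraries by group; points are libraries, bars are the mean ± SD (n = 4 controls, n = 5 in the other groups). The LPS libraries lie above the controls for all 6 genes, and sedanolide alone also lies above the controls for Xdh, Zbtb16, Fkbp5 and Sox18.

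Genes of circulating leukocytes were among the negative calls. Mmp9, a gelatinase stored in neutrophil granules, was at 1.03, 0.464, 1.03 and 0.835 CPM in controls, 6.44, 5.68, 6.87, 4.94 and 5.68 CPM with LPS, 1.01, 0.636, 0.889, 0.755 and 1.19 CPM with sedanolide, and 1.47, 2.07, 1.69, 1.28 and 3.15 CPM with both agents. Sedanolide alone overlapped the controls, and the co-treated libraries lay between sedanolide and LPS. The interaction was -1.70 ± 0.36 (adjusted p = 0.0412), called in 5 of the 19 fits that left out 1 library. Myo1g, a leukocyte myosin, had -1.78 (adjusted p = 0.0407). Among the 12 libraries low in Cdhr1, Mmp9 had -1.95 (adjusted p = 0.407) and Myo1g -1.34 (adjusted p = 0.542). Named after their values were seen, the leukocyte surface genes Adgre4, Spn and Adgre5 had -4.20, -2.57 and -1.16 (adjusted p = 0.0418, 0.0418 and 0.0387). Adgre4 had the largest absolute value of the 104, and these 3 were called in 5, 6 and 8 of the 19 fits that left out 1 library and did not pass in the libraries low in Cdhr1 (adjusted p = 0.39, 0.701 and 0.583). Of 14 neutrophil genes tested, edgeR called 1 (Mmp9), DESeq2 called 4 and limma-voom with sample weights 5, all negative. Over all genes, edgeR called 0.372% negative, DESeq2 276 of 15565 and limma-voom with sample weights 2211 of 17757. The neutrophil list's median was -1.29, and -0.779 in the libraries low in Cdhr1, where edgeR called 0 of the 14. Their summed level was 10.5 to 16.5 CPM in controls, 99.6 to 149 with LPS, 8.22 to 15.6 with sedanolide and 43.3 to 57.1 with both agents. Of 19 monocyte and lymphocyte genes tested, edgeR called 0, with 9 positive and 10 negative values and a median of -0.54. The summed level of 9 erythroid genes was 588 to 653 CPM in controls, 271 to 507 with LPS, 398 to 671 with sedanolide and 393 to 433 with both agents, and the part of blood in these results was not tested. The iron-binding acute-phase gene Lcn2 had -1.83 ± 0.54 and did not pass (adjusted p = 0.129).

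The other named negative genes act in transport, matrix and glycan synthesis. Paqr5, a membrane progestin receptor gene, had -1.60 (adjusted p = 0.00396) and was called in all 19 fits that left out 1 library, but not in the libraries low in Cdhr1 (-1.44, adjusted p = 0.244). Emilin2, an extracellular matrix glycoprotein gene, had -1.92 (adjusted p = 0.0387), B3gnt3, a glycosyltransferase gene, had -1.46 (adjusted p = 0.0246), and the glutamine transporter gene Slc38a5 had -1.41 (adjusted p = 0.042). These 3 were called in 8, 14 and 4 of those fits. With the 7 libraries high in Cdhr1 left out, they had -1.46, -1.18 and -0.99, and none passed (adjusted p = 0.262, 0.384 and 0.539). Slc38a5 overlapped between controls, sedanolide and co-treated libraries (3.19 to 7.09 CPM) and was at 9.26 to 22 CPM in LPS.

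The study asks about complement C3a, its receptor and microglial glycolysis, and no panel gene of these was called in the interaction apart from Slc2a1. Complement C3 was at 0.924, 0.417, 1.62 and 0.71 CPM in controls, 10.4, 16, 12.3, 10.2 and 11.7 CPM with LPS, 0.0915, 0.44, 0.4, 0.504 and 0.228 CPM with sedanolide, and 4.86, 5.37, 5.41, 4.73 and 7.07 CPM with both agents. C3 was lower with sedanolide both without LPS (-1.43, adjusted p = 0.0344) and with it (-1.14, adjusted p = 0.0177). Without LPS its levels were low, and the sedanolide libraries (0.0915 to 0.504 CPM) overlapped the controls (0.417 to 1.62 CPM). In the libraries low in Cdhr1, C3 was at 0.417 and 1.62 CPM in controls, 0.0915, 0.44 and 0.228 with sedanolide, and 10.4 and 11.7 with LPS. All co-treated libraries are among those low in Cdhr1. The C3 interaction was 0.29 with a 95% interval of -0.608 to 1.19. That log2 value compares ratios: from group mean CPM the difference of differences was -6.04 ± 1.16 CPM (SE), of the opposite sign. The receptor gene C3ar1 had 0.13 (-0.429 to 0.688) and C1qa, a subunit of the classical pathway's recognition molecule, had -0.18 (-0.525 to 0.174). Hexokinase gene Hk2 had -0.34 (-0.741 to 0.062) and pyruvate kinase gene Pkm 0.11 (-0.114 to 0.333). Saa3, an acute-phase gene near 0 without LPS, had 1.04 with a wide interval of -1.52 to 3.60. A p that missed the threshold does not show that the sedanolide changes were equal, and the intervals give the sizes that remain possible.

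Over the lists, edgeR called 0 of 21 complement genes, 0 of 24 activated and 0 of 16 homeostatic microglial genes, 0 of 18 antigen presentation genes and 0 of 34 interferon-response genes. Of all genes tested it called 0.586%, and 0 calls in lists of this size is near that share. An unadjusted p below 0.05 was reached by 1, 1, 3, 0 and 5 of them, against 2821 of all 17757 genes. DESeq2 called 1, 0, 0, 0 and 0, against 441 of 15565 genes. Their medians were -0.18, 0.03, -0.20, -0.00377 and 0.30, and 30 of the 34 interferon values were positive. In the libraries low in Cdhr1 the medians were -0.025, 0.0131, -0.119, 0.0393 and 0.136, with 25 of the 34 interferon values positive. There edgeR called 0 in each list, and 20 of 17753 genes in all. Limma-voom with sample weights called 1, 1, 4, 2 and 5, in a fit that called 3851 genes in all. For 33 nuclear genes of oxidative phosphorylation, edgeR called 0 although 32 values were positive and 13 had an unadjusted p below 0.05 (median 0.26). DESeq2 called 0 and limma-voom with sample weights 23. Their median was 0.15 in the libraries low in Cdhr1 and 0.17 after correction for length and GC. Of 28 glycolysis genes, 1 (Slc2a1) was called, with a median of -0.00465, and of 23 cholesterol synthesis genes, 1 (Insig1), with a median of 0.27.

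**Figure D4:**
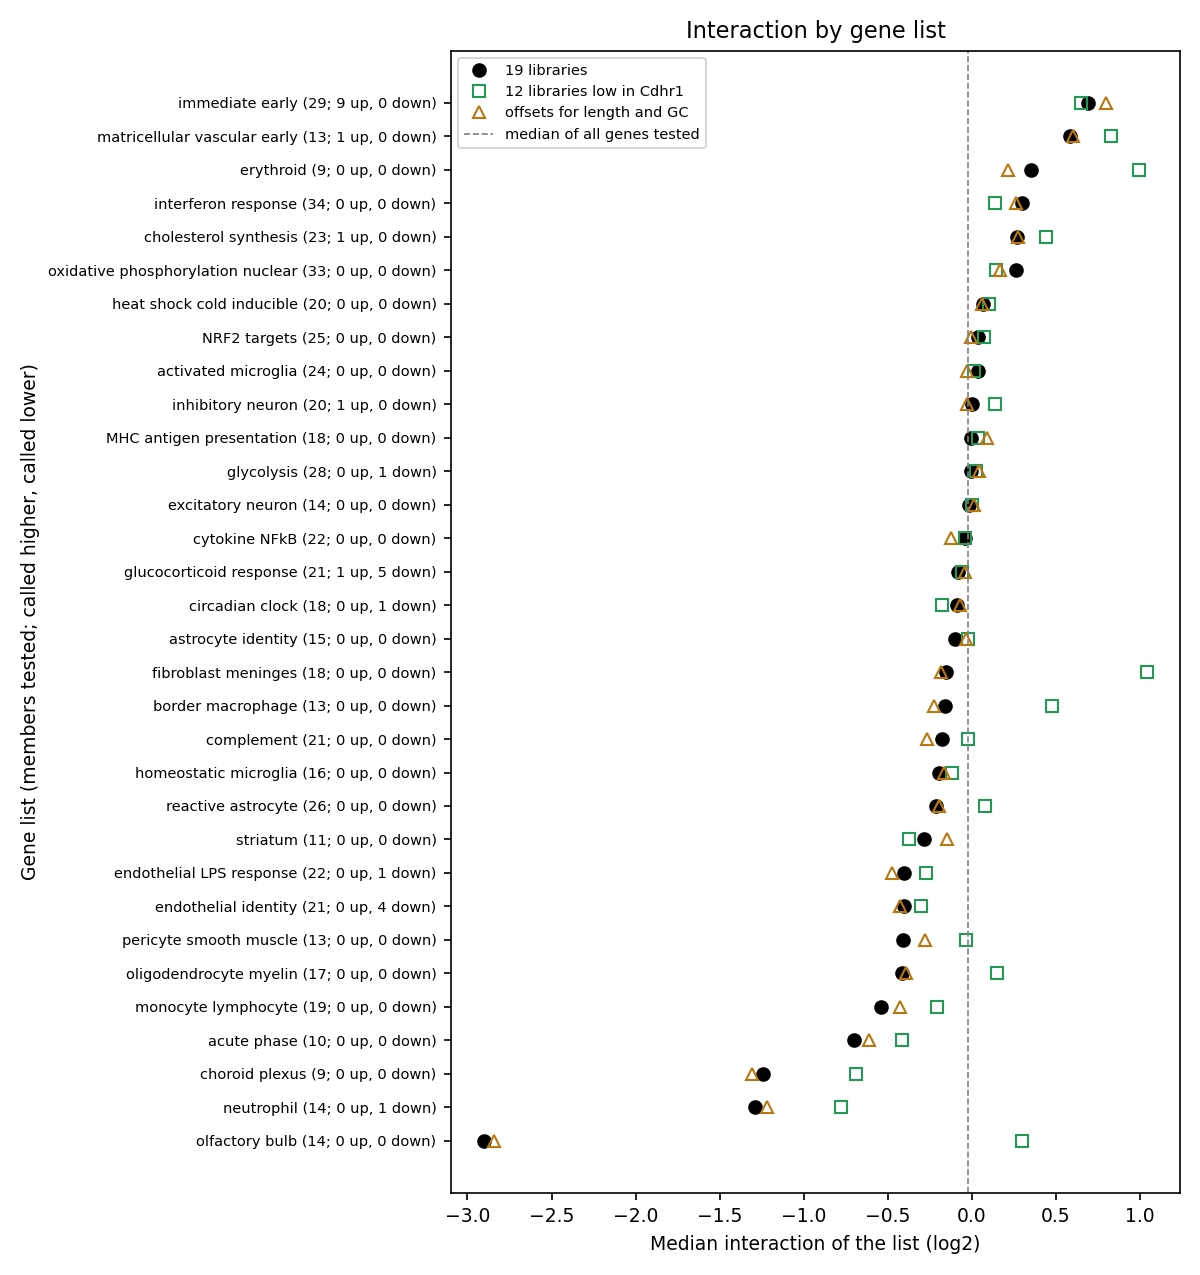
Median interaction (log2, horizontal axis) of each of 32 gene lists, with the number of members tested and called beside its name, in all 19 libraries (circles), the 12 libraries low in Cdhr1 (squares) and after correction for length and GC (triangles). Immediate early genes have the highest median at 0.69 in the 19 libraries, and the olfactory bulb list moves from -2.9 to 0.3 between the 19 and the 12 libraries.

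The interaction varied with transcript length and GC content across genes. The median longest transcript was 2289 bases for genes called positive, 4715 for genes called negative and 3152 for all genes tested, and the median GC content was 48.5%, 54% and 49.6%. With offsets that remove the trend with both from each library, 78 genes were called (32 positive and 46 negative), 59 of them among the 104. Egr2 had 1.96 in that fit, Fos 2.13, Arc 1.92, Xdh -1.77, Zbtb16 -1.22 and Sox18 -1.32, and each of these passed. The part of length and GC content in each call was not tested.

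**Figure D5:**
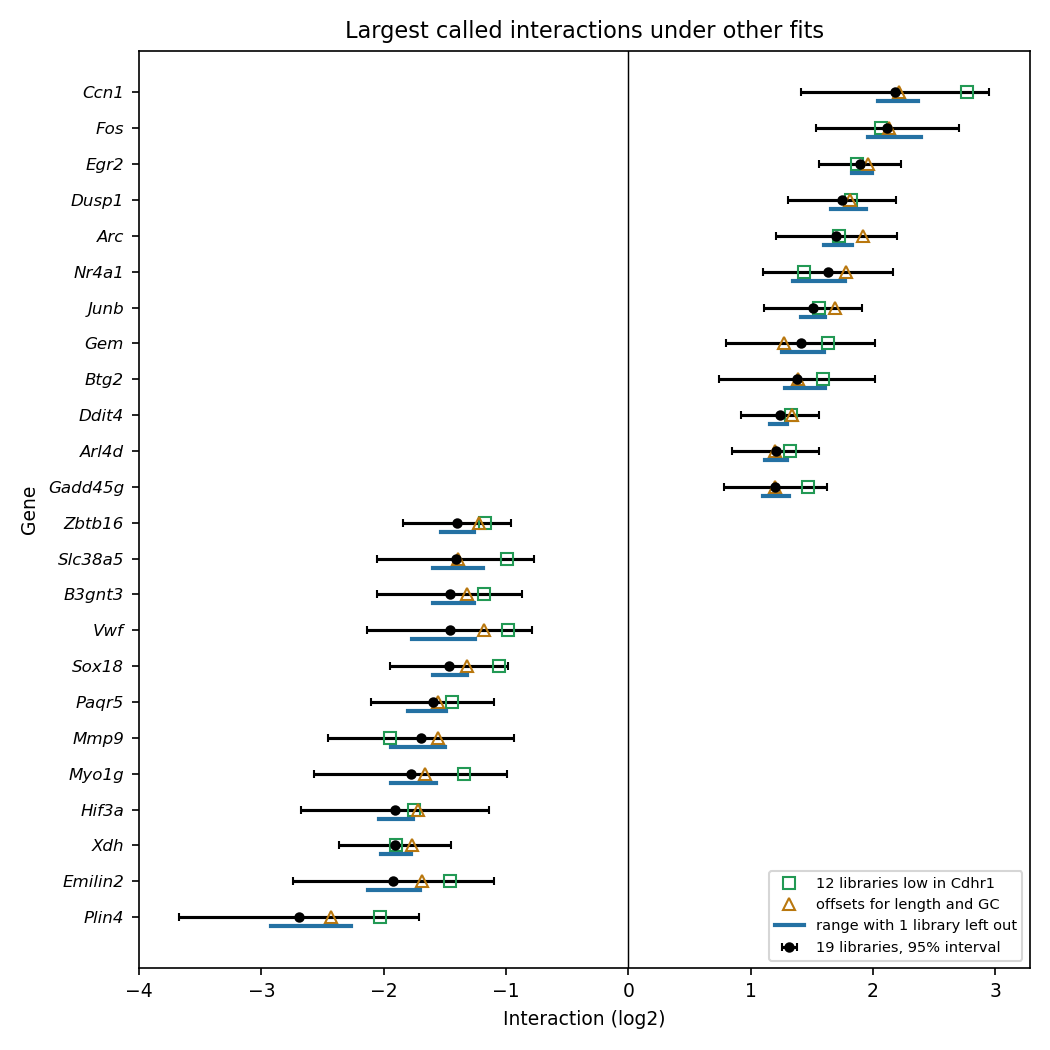
Interaction (log2, horizontal axis) of the 12 positive and 12 negative named genes of largest size: circles with 95% intervals are all 19 libraries, blue bars the range with 1 library left out, squares the 12 libraries low in Cdhr1, triangles the fit with offsets for length and GC content. Every marker keeps the sign of the 19-library value, from Ccn1 at 2.18 to Plin4 at -2.69.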

How the data were processed

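Poly(A) RNA of medial prefrontal cortex was sequenced from strand-marking ligation libraries, per the labels' protocols. The authors deposited raw read counts for 57010 genes, with no normalization, and 0 of its columns were unmatched to a sample. Its name gives featureCounts as the counter. Per the submitters' processing notes the tools were fastp, HISAT2, StringTie, RSEM and DESeq2, without versions. Counting settings, use of strand and genome build are not given in the sources used here, so reads of overlapping or antisense genes may be shared. Control replicate 3 was not analysed here, as neither the 19 samples nor the count columns hold one.

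Counts were fitted with edgeR 4.0.16 in R 4.3.3: TMM factors, the default filter by group (17757 genes kept), and the robust quasi-likelihood test, two-sided, with 1 mean per group over 19 libraries. The 95% intervals come from the same fit. Genes were called at a Benjamini-Hochberg adjusted p below 0.05. On simulated counts for the interaction over 17757 genes, 65% of 100 genes changed by 1 on the log2 scale and 91% of 100 changed by 2 were recovered, with 10 false among 166 calls. Those counts were drawn independently for each gene, with no bulb content that differed between libraries. These shares therefore need not hold for the measured libraries. Named genes were the 12 called positive and the 12 called negative of largest size (protein coding, mean log2 CPM of at least 1), a panel of 29 genes, up to 3 called members of each of 32 lists (or the 1 with the smallest p), and the most abundant member of each cell type list. Members, panel and lists were chosen with earlier results of these data known.

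Alternatives were RLE and upper quartile factors, no filter, a filter of 1 CPM in 4 libraries, DESeq2 1.42.0, limma-voom (limma 3.58.1) with sample weights, the replicate number as a block, an index of 4 bulb markers as a covariate, only libraries with Cdhr1 under 20 CPM, and each library left out. Offsets for transcript length and GC content (GENCODE transcripts) and limma-voom without weights were added after seeing the data. No 2 libraries of a group were identical (0 of 36 pairs).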

Additional observations from a re-analysis of the deposited data

Results flagged for a closer look

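A library stood apart from the others of its group in 9 of 108 groups of values examined, where chance would give about 1 in 20. The mitochondrial share was 5.5% in co-treated replicate 5, against 9.98% to 11.8% in the other co-treated libraries. Without that library the positive interaction calls numbered 84. Sedanolide replicate 3 had Egr2 at 15.7 CPM, against 19.2 to 20.6. LPS replicate 4 was high in Fos (54 CPM, against 23.2 to 30.0) and in Btg2 (39.3, against 19.2 to 24.1). LPS replicate 2 was high in Ddit4 (50.4 CPM, against 42.8 to 44.6) and in Plin4 (7.54, against 2.04 to 3.57). Control replicate 2 had Sox18 at 10.1 CPM, against 6.98 to 7.5. Sedanolide replicate 5 had Slc38a5 at 6.76 CPM, against 4.67 to 5.23, and co-treated replicate 4 had Vwf at 57.2 CPM, against 42.6 to 46.8.

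The sedanolide change differed with and without LPS, by the interaction test, for 104 genes. Among the 24 of largest size the log2 interaction was 2.18 for Ccn1, 2.12 for Fos, 1.90 for Egr2, 1.75 for Dusp1, 1.70 for Arc, 1.63 for Nr4a1, 1.51 for Junb, 1.41 for Gem, 1.38 for Btg2, 1.24 for Ddit4, 1.21 for Arl4d and 1.20 for Gadd45g. It was -2.69 for Plin4, -1.92 for Emilin2, -1.91 for Xdh, -1.91 for Hif3a, -1.78 for Myo1g, -1.70 for Mmp9, -1.60 for Paqr5, -1.47 for Sox18, -1.46 for Vwf, -1.46 for B3gnt3, -1.41 for Slc38a5 and -1.40 for Zbtb16.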

How the results depend on the processing

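All 104 interaction calls that an alternative tested kept their sign in it, but their number varied. It was 441 with DESeq2 (165 positive, 276 negative), 3851 with limma-voom with sample weights (1640 and 2211), 88 without those weights, 314 with the bulb index as a covariate (86 and 228) and 20 in the libraries low in Cdhr1 (17 and 3). Upper quartile factors gave 39 negative calls among 88, so that 55.7% were positive against 36.5% with TMM, and no expression filter gave 25 positive calls. Leaving out 1 library gave 33 to 242 calls, 14 to 84 positive and 18 to 185 negative.

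With the replicate number as a block, 32 genes were called (13 positive, 19 negative), all 32 among the 104, with 95 for sedanolide without LPS and 145 with LPS. The labels do not say what samples of the same number share. Deviations from group means correlated at a median of -0.05 over 27 same-numbered pairs (-0.489 to 0.292). Over 108 differently numbered pairs the median was 0.01 (-0.658 to 0.71), and 1 library correlated best with its own number. These deviations also carry the uneven bulb content, so a shared litter or day was not tested by them.

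For sedanolide without LPS (943 calls), no filter gave 439, DESeq2 1895, voom with weights 4413, the bulb covariate 1466, the libraries low in Cdhr1 8, the length and GC offsets 320, and leaving out 1 library 97 to 1410. For sedanolide with LPS (350 calls) these were 911 (DESeq2), 2648 (voom), 140 (covariate), 35 (low in Cdhr1), 532 (offsets) and 141 to 590. LPS without sedanolide gave 4528 (voom), 848 (low in Cdhr1) and 1308 to 2478, and LPS with sedanolide 3528 (voom) and 762 to 1247. The cause of these differences was not tested. Sample weights ran from 0.305 to 3.55. Depth of 19.08 to 24.32 M counts leaves genes near 0 without LPS, such as Saa3, with wide intervals.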

Other observations

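Several called genes outside the groups above were picked after their values were seen. The long noncoding RNA gene 1700016P03Rik had an interaction of 1.53 ± 0.17 (edgeR adjusted p = 0.000235) and was called in all 19 fits that left out 1 library, with 1.54 in the libraries low in Cdhr1 (adjusted p = 0.0162). Gpr3, a receptor that raises cyclic AMP, had 0.72 (adjusted p = 0.0439), and the splicing genes Srsf7 and Clk1 had 0.48 and 0.75 (adjusted p = 0.0407 and 0.0496). The kinase gene Sik2, which restrains CREB coactivators, had -1.25 (adjusted p = 0.00722), and the adenylyl cyclase gene Adcy9 had -1.03 (adjusted p = 0.0114). In the libraries low in Cdhr1, none of Gpr3, Srsf7, Clk1, Sik2 and Adcy9 passed (adjusted p = 0.419, 0.595, 0.514, 0.125 and 0.0507).

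The myeloid receptor gene Cd300e had -4.04 ± 0.67 (adjusted p = 0.00883) at low levels: 0.0369 to 0.0927 CPM in controls, 1.36 to 3.06 in LPS, 0 to 0.196 in sedanolide and 0.259 to 0.352 in co-treated libraries. The receptor subunit genes Il6ra and Il17ra had -0.84 (adjusted p = 0.0454) and -0.68 (adjusted p = 0.0418). None of these 3 passed in the libraries low in Cdhr1 (adjusted p = 0.0993, 0.522 and 0.67). The microglial genes Nrros, which presents TGF-beta, and Inpp5d, a phosphatase that limits receptor signalling, had -1.07 and -0.88 (adjusted p = 0.0407 for each), and did not pass in the libraries low in Cdhr1 (adjusted p = 0.219 and 0.441).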
